A study of Mus musculus with 18 samples.

Results

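The connexins of the atrium were 5 gap junction genes, Gja1, Gja3, Gja4, Gja5 and Gjc1, chosen by symbol from the 56691 gene IDs of a mouse atrial count table and not for any measured value. Messenger RNA was sequenced from left atria (LA) and right atria (RA) of mice labelled as WT, as Het and as KO. The gene in question is Zfhx3, a zinc finger homeobox transcription factor, and the study's title ties its loss to dilated, arrhythmic atria. Each of 9 animals, 3 of each genotype, gave both atria, so there were 18 samples in 6 groups of genotype and atrium. WT RA replicates 1 and 2 held the same count for every gene and were counted as 1 library, which left 17 libraries, with n = 2 in WT RA and n = 3 in each of the other groups. The labels name no allele, no driver of the deletion, no age and no treatment beyond an entry of NA, and they give the cell type only as cardiac.

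Connexin proteins assemble in rings into hemichannels, and hemichannels of neighbouring cells dock to form gap junctions that pass current and small molecules from cell to cell. In the heart, Gja1 encodes Cx43, the main gap junction protein of working muscle, and Gja5 encodes Cx40, which in muscle is found in the atria and the fast conduction system. Gjc1 encodes Cx45, found early in heart development and in the nodes, Gja4 encodes Cx37, known from arterial endothelium, and Gja3 encodes Cx46, best known from the lens.

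Library depth ran from 18000583 to 33483085 counts, and values are given as CPM, the count relative to the scaled total of its library. Zfhx3 itself lay between 13.9 and 20.3 CPM over all libraries, with 15.3 to 17.3 in KO LA. The count over the whole gene did not separate the labels, and the deleted part is not named, so it does not check them. Xist lay at 0.811 to 1.1 CPM in WT, at 575 to 706 CPM in Het and at 697 to 766 CPM in KO replicate 1, against at most 0.947 CPM in KO replicates 2 and 3. The Y-linked gene Ddx3y was at 0 in Het and in KO replicate 1, so the Het and WT labels cannot be told apart from sex. Cardiomyocyte markers were high in each library, with 10 markers summing to between 43700 and 68200 CPM. WT LA replicate 3 stood apart by its low non-muscle markers, with macrophage markers at 52.2 CPM in sum against up to 190 CPM in the other WT LA libraries. Fewer cells of a type and less RNA per cell cannot be told apart in such tissue libraries.

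The members lie on 5 chromosomes (GRCm38). Gja1 lies at chr10:56377330-56402513 on the plus strand, Gja3 at chr14:57034460-57058100 on the minus strand and Gja4 at chr4:127311421-127314039 on the minus strand. Gja5 lies at chr3:96904693-97077416 on the plus strand and Gjc1 at chr11:102799579-102819700 on the minus strand. Gja5 shares 165 exon bases with Gpr89 on the opposite strand, and the strand rule of the counting is not given. A stretch of 856 aligned bases in its longest annotated transcript is 99.4% identical to a transcript of Zfp697, another gene. That stretch belongs to the transcript of 3668 bases; the transcript of 3109 bases holds 5 bases of it. Zfp697 lay between 17.9 and 39.0 CPM and Gpr89 between 16.9 and 22.2 CPM, against 129 to 285 CPM for Gja5, so Gja5 counts carry this uncertainty. Zfp697 had lower means in RA than in LA, 23.4 against 30.6 CPM in WT, 19.1 against 32.5 in Het and 22.2 against 28.3 in KO, the direction given for Gja5 further on. Its part in the Gja5 differences was not tested. For the other 4 members no stretch of at least 100 bases reached 95% identity to another annotated gene.

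The 250 bases upstream of the RefSeq start sites (GRCm38.p6) are shown for 3 members whose RNA was lower in RA in each animal of known pairing, as described further on, and for Gja3, which was not. Capitals mark motif matches, and RefSeq promoter sequence was matched for these 4 members.
Gja1, chr10:56377050-56377299, plus strand: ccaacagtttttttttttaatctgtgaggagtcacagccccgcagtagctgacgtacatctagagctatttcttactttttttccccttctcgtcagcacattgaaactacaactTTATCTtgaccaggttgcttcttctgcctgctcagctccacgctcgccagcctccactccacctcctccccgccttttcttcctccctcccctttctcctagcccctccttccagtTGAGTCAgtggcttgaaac
Gja5, chr3:97032152-97032401, plus strand: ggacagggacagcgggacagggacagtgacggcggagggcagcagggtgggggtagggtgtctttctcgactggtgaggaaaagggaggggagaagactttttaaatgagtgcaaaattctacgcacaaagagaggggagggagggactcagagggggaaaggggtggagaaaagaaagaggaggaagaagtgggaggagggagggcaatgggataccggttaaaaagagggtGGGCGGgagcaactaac
Gja4, chr4:127314040-127314289, minus strand: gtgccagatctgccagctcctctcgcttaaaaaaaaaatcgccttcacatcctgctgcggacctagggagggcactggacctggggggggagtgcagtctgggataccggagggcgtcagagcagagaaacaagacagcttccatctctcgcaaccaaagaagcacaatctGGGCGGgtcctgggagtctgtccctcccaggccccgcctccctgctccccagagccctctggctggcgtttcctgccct
Gja3, chr14:57058031-57058280, minus strand: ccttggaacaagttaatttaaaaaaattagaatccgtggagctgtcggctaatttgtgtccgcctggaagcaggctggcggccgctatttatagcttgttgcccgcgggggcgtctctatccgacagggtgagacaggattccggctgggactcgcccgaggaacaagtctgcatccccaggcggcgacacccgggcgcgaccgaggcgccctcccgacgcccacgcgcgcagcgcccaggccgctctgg
The motifs searched on both strands were GGTGTGA for T-box factors, TNAAGTG for NKX, AGATAA for GATA factors, GGGCGG for SP1 and TGANTCA for AP-1. Gja1 held 1 GATA match on the opposite strand, TTATCT, starting 135 bases before the start, and 1 AP-1 match, TGAGTCA, starting 19 bases before it. Gja5 and Gja4 each held 1 SP1 match, starting 17 and 79 bases before their starts. Neither of the 2 annotated starts of Gja3 held a match, and no T-box or NKX match was found in any of these windows. Of 32851 promoters of the same length, 3.33% held the T-box letters, 10.1% NKX, 9.99% GATA, 32.7% SP1 and 6.75% AP-1, so the SP1 matches are common letters. The Gja5 window precedes the start of its shorter transcripts and lies inside the annotated gene.

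Gja1 and Gja5 made up most connexin RNA in each group when levels were scaled by length. Per kb of union exon, Gja1 held 48.6% of the summed level of the 5 members (mean of 17 libraries, range 44.1 to 54.3%), and Gja5 held 32.9% (26.5 to 38.4%). Gja3 held 12.2%, Gjc1 3.83% and Gja4 2.46%. With the longest transcript as the length the order was the same, with 63.8% for Gja1, 25.7% for Gja5, 6.52% for Gja3, 2.8% for Gjc1 and 1.23% for Gja4. Gja1 was above Gja5 in all 17 libraries, at 52.5 ± 3.64 against 37.0 CPM per kb of union exon in WT LA (SD, n = 3 for Gja1). The neighbours Gjc1 and Gja4 did not differ beyond their spread in Het LA, at means of 4.23 and 4.17 CPM per kb of union exon.

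**Figure D1:**
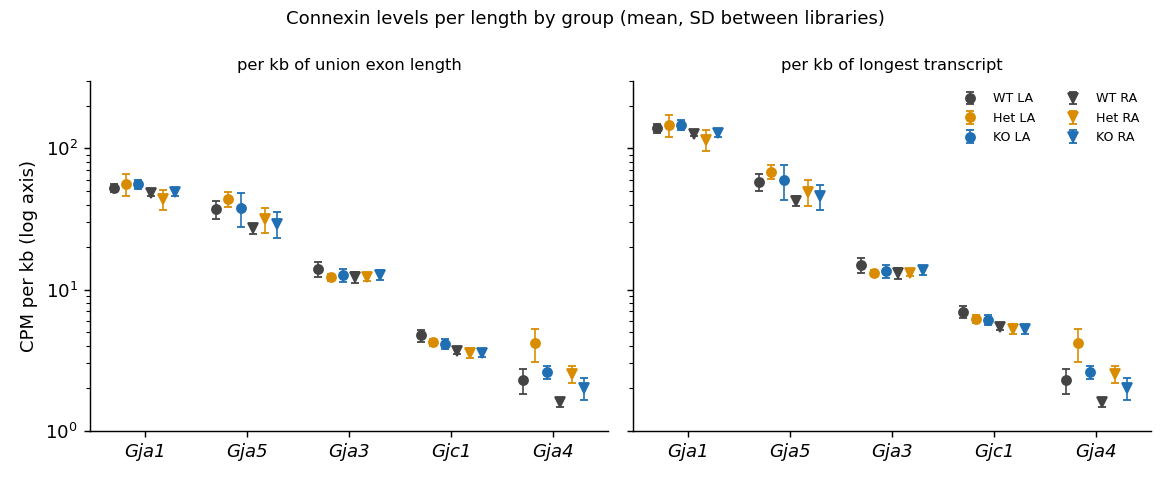
Mean level of each connexin in CPM per kb on a log axis, by group, with the gene's union exon length (left) or its longest transcript (right) as the length; circles are LA, triangles RA, colours the genotypes and bars the SD between libraries (n = 3, WT RA n = 2). Gja1 and Gja5 lie above Gja3, Gjc1 and Gja4 in each of the 6 groups.

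The atrium comparison asks whether connexin RNA differs between the chambers of the same hearts. Among the 7 animals whose atria are tied by their IDs, Gja1, Gja4, Gja5 and Gjc1 were each lower in RA than in LA in 7 of 7, a pattern shown by 11.8% of the 18015 genes compared. Gja3 was lower in 3 and higher in 4. Without the animal of WT LA replicate 3 the first 4 genes were lower in 6 of 6. With library totals in place of scaling, Gja4 was lower in 6 of 7, and Gja1, Gja5 and Gjc1 stayed at 7 of 7. The mean difference, RA minus LA on the log2 CPM scale, was -0.44 ± 0.134 for Gja5, -0.26 ± 0.0955 for Gja1, -0.26 ± 0.133 for Gjc1 and -0.48 ± 0.396 for Gja4 (SD, n = 7 animals). For Gja3 it was -0.03 ± 0.155.

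**Figure D2:**
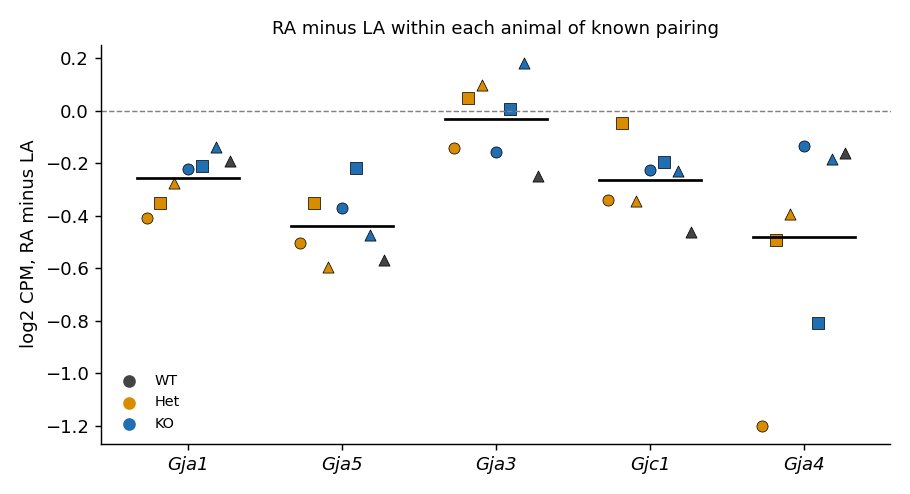
RA minus LA difference in log2 CPM for each connexin in the 7 animals of known pairing; colours are genotypes, symbols the replicate numbers (circle 1, square 2, triangle 3) and black lines the means. The points of Gja1, Gja5, Gjc1 and Gja4 lie below 0 in each animal, and those of Gja3 lie on both sides.

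Cardiomyocyte markers moved the same way. Their summed CPM was lower in RA in 7 of 7 animals, by a mean log2 difference of -0.24 ± 0.0537, and 5 of the 10 passed the edgeR test as lower in each genotype, among them Tnnt2, a thin filament protein, and Pln, which restrains the calcium pump. Set against that sum within each library, Gja5 was lower in RA in 7 of 7 animals, by -0.20 ± 0.111. Gja1 was then lower in 5 of 7 (mean -0.02 ± 0.133), Gjc1 in 5 of 7 (-0.03 ± 0.12) and Gja4 in 4 of 7 (-0.25 ± 0.436). Gja3 was higher in 7 of 7 animals on this scale, by 0.21 ± 0.166. This scale was chosen after the data were seen, and the share of all genes with 7 of 7 on it was not computed. The marker sum includes Myh6, at means of 29500 CPM in WT LA and 27900 CPM in WT RA. The median edgeR log2 fold change of the 10 markers was -0.35 in WT, -0.32 in Het and -0.32 in KO. Endothelial markers had a median log2 difference of 0.35 in WT, 0.08 in Het and 0.27 in KO, higher in RA. For arterial endothelial markers the median was 0.13 in WT, -0.26 in Het and -0.11 in KO, though Unc5b and Hey1 passed as higher in RA in each. Fbln5 also passed as higher in WT, and Sox17 passed as lower in KO (-0.71, edgeR adjusted p = 0.0372). Of the 8 markers, 3 passed as higher in WT, 2 in Het and 2 in KO, against 5.31%, 3.32% and 3.66% of all genes. The part of these marker lists in the connexin differences was otherwise not tested.

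Gja5, whose Cx40 sets apart atrial from ventricular working muscle, had 185, 208 and 244 CPM in the 3 WT LA libraries and 147 and 165 CPM in the 2 WT RA libraries. It had 239, 285 and 230 CPM in Het LA and 168, 223 and 152 CPM in Het RA, in the order of the replicates. In KO it had 244, 150 and 261 CPM in LA and 189, 129 and 188 CPM in RA. All RA libraries of WT and of Het lay below all LA libraries of the same genotype, while in KO the groups overlapped because replicate 2 was the lowest library of both atria. The edgeR log2 fold change, RA against LA, was -0.45 in WT (95% interval -0.97 to 0.08), -0.47 in Het (-0.93 to -0.01) and -0.37 in KO (-0.84 to 0.09). None passed the test over all genes without the animal in the fit (edgeR adjusted p 0.28, 0.233 and 0.378), though each did without the filter on low counts (edgeR adjusted p 0.000125, 3.12e-06 and 0.000355). The unfiltered fit keeps every gene with any count, and the share of all genes it called is not given here. This limit also holds where that fit is named below. With the animal as a block Gja5 passed in each genotype, with edgeR adjusted p of 0.000601, 3.17e-05 and 0.000649. WT block values take the identical WT RA library as replicate 1 unless stated. This pairing is assumed and leaves WT LA replicate 2 without a partner.

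Gja1, the gene of Cx43, had 526, 510 and 581 CPM in WT LA and 479 and 508 CPM in WT RA. It had 552, 681 and 481 CPM in Het LA against 415, 533 and 398 CPM in Het RA, and 623, 542 and 553 CPM in KO LA against 534, 468 and 502 CPM in KO RA. The groups did not overlap in WT and KO, and overlapped in Het, where replicate 2 was the highest library of both atria. The log2 fold change was -0.13 in WT, -0.35 in Het and -0.19 in KO, and none passed the test (edgeR adjusted p 0.624, 0.0917 and 0.424). In Het it passed without Het RA replicate 2 (edgeR adjusted p 0.0164), without Het LA replicate 3 (edgeR adjusted p 0.0311) or without the low-count filter (edgeR adjusted p 0.00124). With the animal block Gja1 passed in Het and in KO (edgeR adjusted p 0.000135 and 0.0172) and not in WT (edgeR adjusted p 0.0921).

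**Figure D3:**
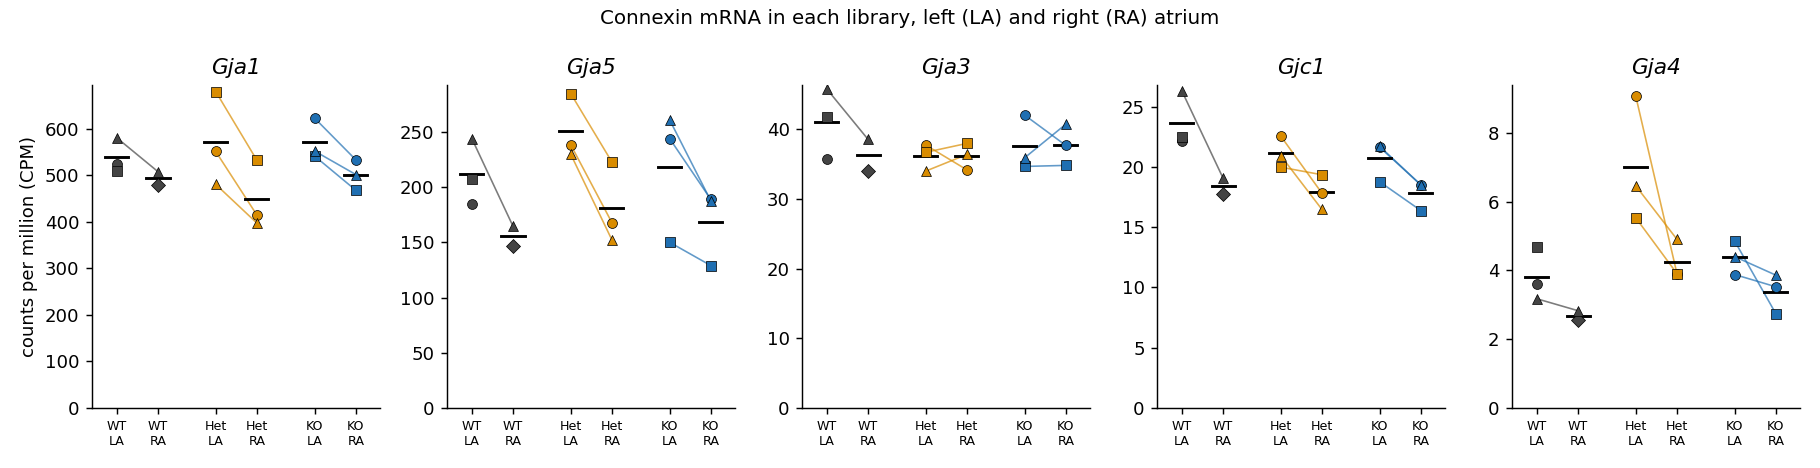
CPM of each connexin in the 17 libraries, with axes from 0; symbols are replicate numbers (circle 1, square 2, triangle 3), the diamond is the WT RA library deposited under both replicates 1 and 2, lines join the atria of 1 animal and black bars are group means. Lines fall from LA to RA for Gja1, Gja5, Gjc1 and Gja4, and KO replicate 2 is the lowest Gja5 library in both atria.

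Gjc1, the gene of Cx45, was the member that passed the test in WT. It had 22.2, 22.5 and 26.3 CPM in WT LA and 17.8 and 19.1 CPM in WT RA, with no overlap. Its log2 fold change was -0.36 (SE 0.106, edgeR adjusted p = 0.0348). This call was lost without WT LA replicate 3 (-0.29, edgeR adjusted p 0.113) or either WT RA library (edgeR adjusted p 0.286 and 0.0968), by limma-voom (limma adjusted p 0.0526), with library totals (edgeR adjusted p 0.229) and without the low-count filter (edgeR adjusted p 0.0594). In Het it had 22.6, 20.0 and 20.9 CPM in LA and 17.8, 19.3 and 16.5 CPM in RA, and in KO 21.6, 18.8 and 21.7 CPM in LA and 18.5, 16.4 and 18.5 CPM in RA. All RA libraries again lay below all LA libraries, with log2 fold changes of -0.24 in Het and -0.22 in KO that did not pass (edgeR adjusted p 0.129 and 0.184). With the animal block Gjc1 passed in WT (edgeR adjusted p 0.00875) and Het (edgeR adjusted p 0.0393) and not in KO (edgeR adjusted p 0.0653).

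Gja4, the gene of Cx37, passed in Het. It was the least abundant member, with 49 to 268 counts per library. It had 9.07, 5.53 and 6.46 CPM in Het LA and 3.90, 3.91 and 4.91 CPM in Het RA, a log2 fold change of -0.73 (SE 0.192, edgeR adjusted p = 0.0263). In WT it had 3.61, 4.68 and 3.17 CPM in LA and 2.54 and 2.83 CPM in RA, and in KO 3.88, 4.86 and 4.40 CPM in LA and 3.52, 2.74 and 3.86 CPM in RA. RA lay below LA without overlap in each genotype, but log2 fold changes of -0.53 in WT and -0.38 in KO did not pass (edgeR adjusted p 0.178 and 0.318). The Het call was lost without Het LA replicate 1, the library at 9.07 CPM, with a log2 fold change of -0.49 and an edgeR adjusted p of 0.177, and likewise without Het RA replicate 1 (edgeR adjusted p 0.0969) or Het RA replicate 2 (edgeR adjusted p 0.0863).

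Gja3, the gene of Cx46, did not pass between the atria in any genotype. It ranged from 34.0 to 45.8 CPM over the 17 libraries, with group means of 41.1 ± 5.04 CPM in WT LA and 36.3 ± 3.26 CPM in WT RA, 36.2 ± 1.93 and 36.2 ± 1.91 CPM in Het, and 37.6 ± 3.95 and 37.8 ± 2.96 CPM in KO (SD, n = 3, WT RA n = 2). The log2 fold change was -0.18 in WT (95% interval -0.41 to 0.05), 0.00 in Het (-0.20 to 0.20) and 0.01 in KO (-0.19 to 0.21). With the animal block it passed in WT only if the identical WT RA library was taken as replicate 2 (-0.27, edgeR adjusted p = 0.0324) and not as replicate 1 (edgeR adjusted p 0.251). Of the lens and skin markers, Cryaa and Krt5 were at 0 in each group and Krt14 was at most at 1.64 CPM. Krt14 passed as higher in RA than in LA in WT (1.58, edgeR adjusted p = 0.0373). Cryab, a crystallin that heart muscle also makes, had group means of 687 to 915 CPM.

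Counted over the members, 1 of 5 passed as lower in RA in WT, 1 in Het and 0 in KO, where Gjc1 had an unadjusted p under 0.05 in edgeR and no member passed by DESeq2 or limma-voom. Of all genes tested, 11.9% were called in WT (6.55% as lower), 7.69% in Het (4.37% as lower) and 8.35% in KO (4.68% as lower). With the animal block, 2 of 5 (or 3, by the animal given to the identical library) passed as lower in WT, 4 in Het and 2 in KO, against 9.05% (or 10.6%), 8.72% and 8.29% of all genes called as lower. Groups did not overlap, with RA lower, for 4 of 5 members in WT, 3 in Het and 3 in KO, against 20.0%, 13.3% and 13.6% of all genes. The members' median log2 fold change was -0.36 in WT, -0.35 in Het and -0.22 in KO, against 0.01, 0.00 and 0.00 over all genes tested. Cardiomyocyte markers had medians of -0.35, -0.32 and -0.32, so a lower level in RA was not particular to the connexins. With library totals in place of scaling, Gja1 in WT turned to a log2 fold change of 0.05.

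The atrium difference was also compared between genotypes, which asks whether the chambers' connexin pattern changes with Zfhx3. No member passed, and 0.0% of genes were called by edgeR in either interaction (1 gene in each by DESeq2, 0 by limma-voom). The differences of the atrium fold change, KO against WT, ranged from -0.07 for Gja1 to 0.19 for Gja3, with an interval for Gja5 of -0.62 to 0.76 around 0.07. For Het against WT they ranged from -0.22 for Gja1 to 0.18 for Gja3. At an unadjusted p under 0.05, 713 genes for KO and 785 for Het passed, none of them a member.

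The KO and Het comparisons share their WT libraries. The KO comparison asks whether connexin RNA differs in atria without functional Zfhx3 by their label. In LA, 0 of 5 members passed, against 7.81% of all genes tested, and in RA 0 of 5, against 0.523%. Gja1 had a mean of 573 ± 44.3 CPM in KO LA against 539 ± 37.3 in WT LA (SD, n = 3 each), a log2 fold change of 0.08 (95% interval -0.18 to 0.34). In RA it had 501 ± 32.7 CPM in KO against 494 ± 20.3 in WT, a log2 fold change of 0.03 (-0.22 to 0.29). Gja5 had a log2 fold change of 0.03 in LA (-0.44 to 0.50) and 0.12 in RA (-0.35 to 0.60), with KO replicate 2 at 150 and 129 CPM and the other KO libraries at 244 to 261 CPM in LA and 188 to 189 CPM in RA. Gjc1 in LA was lower in all 3 KO libraries, at 18.8 to 21.7 CPM, than in the 3 WT libraries, at 22.2 to 26.3 CPM, a separation that 15.0% of genes showed. Its log2 fold change of -0.20 (95% interval -0.41 to 0.01) did not pass (edgeR adjusted p = 0.227). Gja3 and Gja4 had log2 fold changes of -0.14 and 0.17 in LA and 0.07 and 0.34 in RA, with intervals that span 0. No member had an unadjusted p under 0.05 in either atrium, and none passed by DESeq2 or limma-voom.

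In the Het comparison 1 of 5 members passed, Gja4 in LA, against 9.4% of all genes called and 4.02% called as higher. Gja4 lay at 5.53 to 9.07 CPM in Het LA and at 3.17 to 4.68 CPM in WT LA, without overlap, a separation 16.7% of genes showed. Its log2 fold change was 0.85 (95% interval 0.39 to 1.31, edgeR adjusted p = 0.0297). In RA, Het libraries at 3.90 to 4.91 CPM again lay above WT at 2.54 to 2.83 CPM, as for 15.7% of genes, but the log2 fold change of 0.67 did not pass (edgeR adjusted p = 0.177), and 0 of 5 members passed against 0.57% of all genes; Gja4 was the 1 member with an unadjusted p under 0.05. KO replicate 1, with the same Xist and Ddx3y pattern as Het, had 3.88 CPM of Gja4 in LA, inside the WT range. In RA the same animal had 3.52 CPM, above both WT RA libraries. This is 1 animal, and the Het and WT labels cannot be told apart from sex. Arterial endothelial markers summed to 626 to 644 CPM in Het LA and 282 to 634 CPM in WT LA. Most of this sum is Mgp, at means of 449 CPM in Het LA, 344 CPM in WT LA and 366 CPM in KO LA. Of these 8 markers, 2 passed as higher in Het LA, Unc5b and Fbln5, with a list median of 0.40. In KO LA, where Gja4 did not pass, they summed to 511 to 572 CPM. There 2 of 8 also passed as higher, Unc5b and Hey1, with a list median of 0.39. The part of these markers in the Gja4 result was not tested. The Gja4 call in Het LA was lost with Xist as a covariate (1.09, edgeR adjusted p = 0.389) and with the 2 genotypes alone in the fit (0.0557). It was also lost without WT LA replicate 1 (edgeR adjusted p 0.0644), WT LA replicate 3 (0.0762), Het LA replicate 1 (0.0973) or Het LA replicate 3 (0.0574). Xist lay at 0.811 to 0.938 CPM in WT LA and 575 to 696 CPM in Het LA. Only KO libraries thus separate Xist from the Het label, so the Xist fit can hardly test this call.

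The other 4 members did not pass in Het. Gja5 had a mean of 251 ± 29.6 CPM in Het LA against 212 ± 29.8 in WT LA (SD, n = 3 each), a log2 fold change of 0.23 (95% interval -0.24 to 0.70), and 0.22 in RA (-0.26 to 0.70). Gja1 had log2 fold changes of 0.07 in LA and -0.13 in RA, Gja3 of -0.20 and 0.01, and Gjc1 of -0.17 and -0.04. Without Het LA replicate 2, the highest Gja1 library at 681 CPM, the LA value of Gja1 turned to -0.07.

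**Figure D4:**
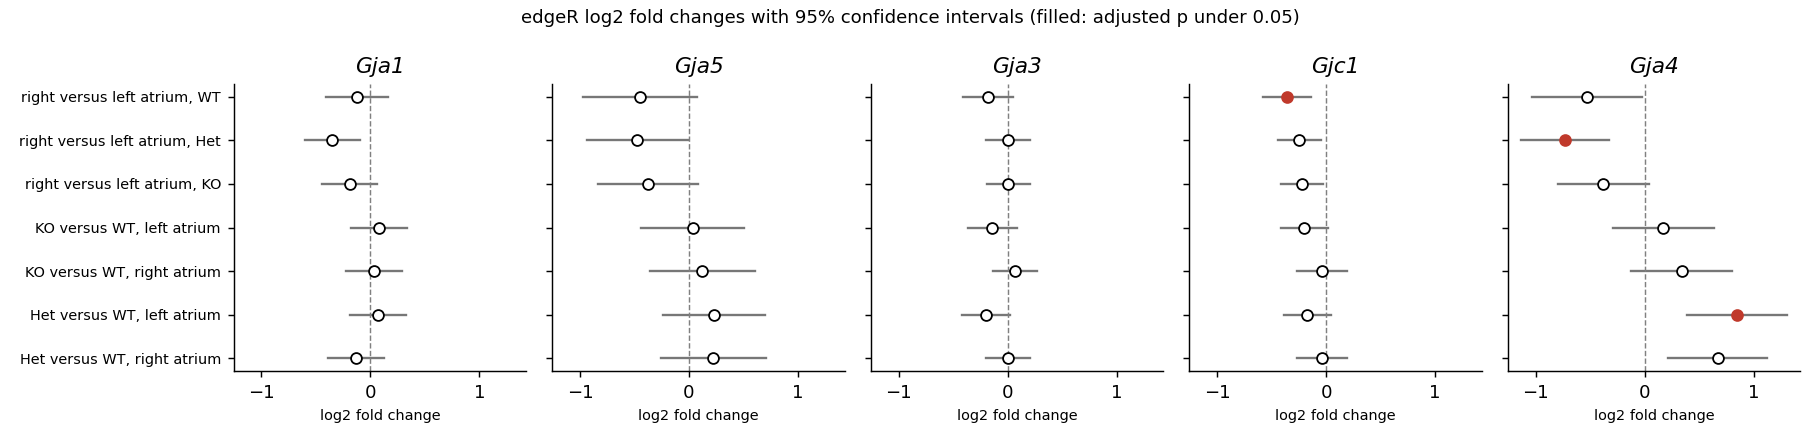
edgeR log2 fold changes of each connexin (points) with 95% confidence intervals (lines) in the 3 atrium and 4 genotype comparisons, from the fits without the animal block; filled red points have an adjusted p under 0.05. Filled points are Gjc1 in WT and Gja4 in Het for the atria, and Gja4 for Het against WT in LA.

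The ratio of Gja5 to Gja1 does not depend on scaling between libraries, and it describes the balance of the main atrial connexins. Per kb of union exon it was 0.702 ± 0.0646 in WT LA, 0.791 ± 0.0558 in Het LA and 0.679 ± 0.175 in KO LA, and 0.563 ± 0.0222 in WT RA, 0.718 ± 0.0321 in Het RA and 0.597 ± 0.093 in KO RA (SD, n = 3, WT RA n = 2). The 3 Het RA libraries, at 0.723, 0.747 and 0.683, lay above the 2 WT RA libraries, at 0.547 and 0.578. In a two-sided exact permutation test this difference had p = 0.2, the smallest that 3 against 2 libraries allows. Between atria the exact permutation p was 0.2 in WT, 0.1 in Het and 0.5 in KO, where 0.1 is the smallest for 3 against 3 libraries. That test treats the atria as independent; within the 7 animals of known pairing the ratio was lower in RA in 7 of 7, with a mean log2 difference of -0.18 ± 0.16 (SD, range -0.38 to -0.00094). Within Het and within KO the paired exact permutation p, chosen after the data were seen, was 0.25, the smallest that 3 animals allow. For KO against WT the exact permutation p was 0.8 in LA and 0.8 in RA, and over the 7 comparisons the adjusted values ran from 0.35 to 0.8. KO replicate 2 had the lowest ratio of each atrium, 0.495 in LA and 0.492 in RA, and KO LA replicate 3 was at 0.844.

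**Figure D5:**
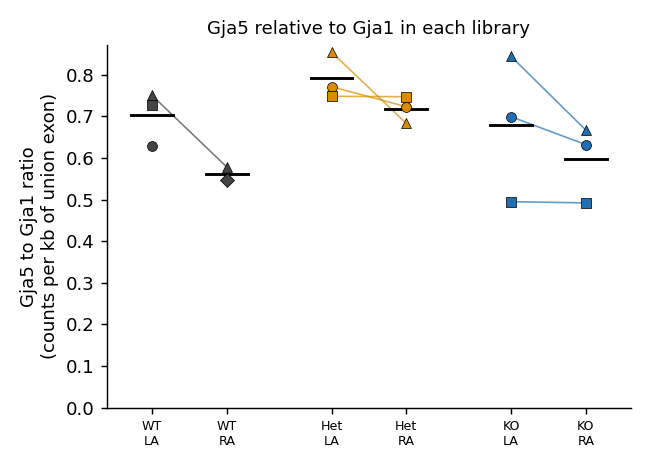
Ratio of Gja5 to Gja1, both in counts per kb of union exon, in each library, with the axis from 0; symbols and lines are as in the plot of CPM by library and black bars are group means. KO libraries spread from 0.495 to 0.844 in LA, and KO replicate 2 is lowest in both atria.

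The rest of the connexin family was scarce. Of 20 connexin genes listed, all were in the table, and the 5 members held 99.4 to 99.8% of their counts in each library. Of the 15 others, Gjb5 passed the filter on low counts in each fit, and Gjc3 in LA and in the atrium fits. Gjb5, known from skin and placenta, was higher in RA than in LA in Het by 1.19 on the log2 scale (edgeR adjusted p = 0.0462), with 0.63 in WT and 0.18 in KO that did not pass. Gjc3, a connexin of glia, was lower in RA in KO by a log2 fold change of -1.98 (edgeR adjusted p = 0.0300) on 2 to 27 counts per library. Panx1 and Panx2, of the related pannexin channels, passed in no comparison.

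Partners of connexin proteins and their transcription factors were counted from lists. Of 32 scaffold, junction and turnover genes, 2 passed as higher and 6 as lower in RA than in LA in WT. In Het 2 passed as higher and 6 as lower, and in KO 2 and 3. Of all genes, 11.9% passed in WT, 7.69% in Het and 8.35% in KO. Cav1, a caveolar scaffold, was lower in RA in each genotype, by log2 fold changes of -0.75 in WT, -0.56 in Het and -0.55 in KO, and its muscle relative Cav3 by -0.60, -0.53 and -0.51. Dsc2, a desmosomal cadherin of the intercalated disc, was lower in each (-0.43, -0.54 and -0.48). Ocln, of tight junctions, was higher in each (0.87, 0.79 and 0.76). The list's median was 0.00 in WT, -0.05 in Het and 0.01 in KO. For KO against WT in LA, 2 of 32 passed as higher, the kinase gene Mapk7 (0.68) and the ubiquitin ligase gene Smurf2 (0.30), and in Het 1 as higher, Mapk7 (0.76), and 3 as lower, Wwp1, Dsp and Ank2 (-0.39, -0.46 and -0.38), against 7.81% and 9.4% of all genes. None passed in RA for either genotype.

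Of 24 transcription factors known as regulators of connexin genes in the heart, 9 passed as higher in RA than in LA in WT, 5 in Het and 4 in KO, against 5.31%, 3.32% and 3.66% of all genes called as higher. Hey1, a Notch target, was higher in RA in each genotype (1.64, 1.25 and 1.29), as were Tbx20, a T-box factor (0.75 in each), and Etv1, an ETS factor (0.70, 0.57 and 0.73). For KO against WT, 5 passed as higher in LA, among them Shox2 (1.17), Tbx20 (0.39), Hey1 (0.57) and Tbx5 (0.28), against 3.42% of all genes called as higher. In RA 1 passed as lower, Tbx3 (-0.66), against 0.285% of all genes called as lower. For Het against WT in LA, Shox2 (1.33) and Klf4 (0.97) passed as higher, against 4.02% of all genes.

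Genes with the most similar profile to each member were named by the Pearson correlation of log2 CPM over the 17 libraries, among the 10703 genes that averaged 5 CPM or more. They are descriptions, since the libraries share animals, groups and depth. For Gja1 they were Tob1, Neto2 and Zfp518b (0.87, 0.87 and 0.86), and for Gja5 Slc41a3, Adamts19 and Ubtd1 (0.84, 0.83 and 0.82). For Gjc1 they were Tnnt1, Tmx2 and Arhgef19 (0.93, 0.92 and 0.90), for Gja4 Dlc1, Colgalt2 and Dll1 (0.84, 0.81 and 0.80), and for Gja3 Lactb2, Atg10 and Tasp1 (0.82, 0.81 and 0.81). With group means removed, the closest were Zfp518b for Gja1 (0.94), Itgb6 for Gja5 (0.93), Zbtb25 for Gjc1 (0.88), Slc25a51 for Gja4 (0.89) and D330025C20Rik for Gja3 (0.90). Ranked by Spearman correlation, 1 of the 3 genes stayed among the first 3 for each member.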

How the data were processed

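Direct-zol RNA, KAPA mRNA HyperPrep libraries and NovaSeq reads were used, per the labels' protocols. The authors deposited raw gene counts, whole numbers per gene and sample. Per the submitters' processing notes the tools were STAR 2.7.9a and DESeq2 1.30.1, on mm10. Annotation release, counting rule and strand: not given in the sources used here. Of 56691 IDs, 52073 matched GENCODE M21 (GRCm38) by base ID, which gave symbols and lengths.

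Genes passed filterByExpr (minimum count 10) and were tested with edgeR 4.0.16 (R 4.3.3): TMM scaling, robust quasi-likelihood F tests, Benjamini-Hochberg adjustment over all genes tested, threshold 0.05. Genotype comparisons used the libraries of 1 atrium, atrium comparisons and interactions all 17. A prior count of 2 was added for log2 CPM; "passed" means an adjusted p under 0.05. The labels show separate animals. Left and right atria with 1 animal ID deviated from their group means together (Pearson 0.158 to 0.411 across genes; 0.12 if the identical library is WT animal 2), so the animal block stands beside the results. Unless stated, block values take that library as replicate 1. The design was written for 18 libraries.

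Named were the 5 members, up to 4 called genes a list, other connexins past the filter, and the 3 closest genes by correlation. The members and lists were chosen with earlier results of these data known. A few genes that this rule takes are not reported here. Near-copies were searched with blastn 2.17.0. In simulated data, edgeR recovered 47.3, 65.2 and 89.4% of genes changed 1.5-, 2- and 4-fold for KO against WT in LA (16974 genes, 6 false calls per run), and 47.3, 71.6 and 86.4% for RA against LA in Het (18018 genes, 8.67 false calls per run). Alternatives were DESeq2 1.42.0, limma-voom (limma 3.58.1), RLE scaling, library totals, no low-count filter, each library left out, 2 genotypes only, all libraries in 1 fit, the block, Xist as a covariate and the identical columns as 2 libraries.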

Additional observations from a re-analysis of the deposited data

How the results depend on the processing

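Of 755 values of single connexins under the alternatives, 15 lost a call and 20 gained one. The sign was kept in 703 and turned in 52, none of them called in either fit, from reported values of at most 0.20 in size. In 7 it turned by more than the SE of the reported value. With library totals only these were Gja3 in LA (0.0495 for KO, 0.0453 for Het), Gjc1 for Het in LA (0.0696), Gja1 between WT atria (0.0473) and the KO against WT difference of the Gjc1 atrium change (-0.00308); this scaling moved the median of all genes by 0.18 for KO and 0.24 for Het in LA, and 0.18 between WT atria. Gja1 for Het in LA turned without Het LA replicate 2 (-0.074) and with Xist as a covariate (-0.0895).

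The number of connexins called was 0 for KO in LA and in RA under all alternatives run. For Het in LA it was 0 with 2 genotypes only and 0 with Xist as a covariate, and 0 to 1 with a library left out. For Het in RA it was 1 with the identical columns as 2 libraries. Between WT atria it was 0 by limma-voom, 0 with library totals, and 0 to 1 with a library left out; the Gjc1 call was lost without WT LA replicate 3 (edgeR adjusted p 0.113) and without either WT RA library (0.286 and 0.0968). Between Het atria it was 3 with no low-count filter and 0 to 2 with a library left out, and between KO atria 1 with no filter, which was Gja5. With the animal as replicate block, by the animal given to the identical library, it was 2 or 3 in WT, 4 or 4 in Het and 2 or 2 in KO. Replicate numbers do not pair genotypes (deviations correlated at -0.105 to 0.144), and that replicate block changed no call of a connexin in the genotype comparisons. Over all genes in RA, DESeq2 called 400 genes for KO and 395 for Het, against 90 and 98 by edgeR.

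The log2 ratio of Gja5 to Gja1, with a library left out, ran from -0.251 to 0.134 for KO in LA, -0.0128 to 0.208 for KO in RA and -0.376 to 0.00938 between KO atria; the turns come without KO LA replicate 2, KO RA replicate 3 and KO LA replicate 3. On the scale relative to cardiomyocyte markers, Gja4 was lower in RA in 4 animals and Gja3 in 0. Gja4, with 49 to 268 counts a library, is the member that depth limits most.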
